A study of Mus musculus with 7 samples.

Results

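The genes of the proteasome subunits were examined in vascular fragments of the mouse brain after an injection of the growth factor PDGF-CC. A gene was taken if the annotation gave a probe set its symbol alone and the symbol began with Psma, Psmb, Psmc, Psmd or Psme followed by digits. Psmb8, Psmb9 and Psmb10, the inducible subunits of the immunoproteasome, were left out of the members and are given among the partner genes. The brightest probe set stood for each gene. This gave 39 members of the 22180 genes with a probe set of their own, and all 39 passed the filter on low values, a mean log2 level above 4.14 over the 7 arrays. Psma4 was present on probe sets shared with another gene and was not analysed here.

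Mice were females of the strain C57BL/6N at an age of 12 weeks (the sample labels say C57BL/6 and adult). They received PDGF-CC, a ligand of the receptor PDGFR-alpha, or phosphate-buffered saline (PBS) into the cerebral ventricles by intracerebroventricular (ICV) injection, and tissue was taken 4 hours after it. The labels name no gene alteration. The PDGF-CC group had 4 arrays and the PBS group 3, and the labels do not say whether an array held RNA of 1 mouse or of several. P-values thus refer to the variation among these arrays, part of which may be technical. Levels are log2 values deposited after RMA. That procedure makes the distributions of probe intensities on the arrays equal, so a change shared by all RNA would not be seen.

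The proteasome is the large protease that degrades proteins tagged with ubiquitin. Its core is a barrel of outer alpha rings, which gate the channel, and inner beta rings, which hold the proteolytic sites. The regulatory particle on the end of the barrel recognises ubiquitin, unfolds the substrate with a ring of ATPases and removes the ubiquitin chain, and other activators can open the barrel instead. Subunit genes are transcribed together in most tissues, and the transcription factors Nfe2l1 and Nfe2l2 raise them when proteasome activity falls or under oxidative stress.

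Arrays correlated at 0.987 to 0.994 over all probe sets. All 8 endothelial markers passed the filter, with mean log2 levels between 10.99 and 11.21 on the arrays, while neuronal markers lay between 4.67 and 4.89. The endothelial markers differed by -0.062 as a mean over 8 genes, with 7 of 8 lower and overlapping groups (10.99 to 11.15 with PDGF-CC and 11.07 to 11.21 with PBS). Choroid plexus markers differed by -0.69 between the groups as a mean over 6 genes (6.71 to 7.52 with PDGF-CC and 7.73 to 8.07 with PBS), and fibroblast markers by -0.24 over 4 genes (5.37 to 5.55 and 5.57 to 5.80), both without overlap. Microglial markers differed by +0.26 over 5 genes (10.01 to 10.05 and 9.44 to 9.96), also without overlap. Groups overlapped for pericyte markers (-0.18, 6 of 6 lower), smooth muscle markers (+0.17, 0 of 4 lower), oligodendrocyte markers (+0.18, 0 of 4 lower) and neutrophil and monocyte markers (-0.26, 4 of 6 lower). The part of these cells in the results below was not tested. In such bulk samples fewer cells of a type and less RNA per cell cannot be told apart.

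No proteasome subunit gene was called higher or lower after PDGF-CC by the fit over all genes, and neither was any other tested probe set. Of 39 members 0 passed an adjusted p of 0.05 by limma (Benjamini-Hochberg over 17734 probe sets), against 0% of all probe sets called higher and 0% called lower, and the smallest adjusted p of a member was 0.769. At an unadjusted p under 0.05 there was 1 member of 39, Psmd8, against 6.04% of all probe sets in either direction, 3.41% lower and 2.63% higher. The differences of the members ran from -0.21 (Psmd5) to +0.12 (Psme2) on the log2 scale. Their median was -0.045, against -0.0038 over all tested probe sets.

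The size of the change that these arrays leave room for was small. The 95% intervals of the members reached at most from -0.43 (Psmd5) to +0.36 (Psme2), that is 1.34-fold lower and 1.29-fold higher. For 32 of 39 members the whole interval lay within 1.25-fold in both directions, against 53.3% of all probe sets and 62.9% of those of like brightness (defined below), and for 39 of 39 it lay within 1.5-fold, against 88.3%. The number within 1.25-fold was 25 of 39 with a term for the replicate number in the fit and 30 of 39 without PDGF-CC array 2. It was 36 of 39 when quantile normalization was repeated. The intervals are those of single genes and are not adjusted for the number of genes. These bounds were chosen after the data had been seen. The intervals that passed 1.25-fold belonged to Psma3, Psma8, Psmc6, Psmd5, Psmd8 and Psmd12 on the lower side and to Psme2 on the higher side. The residual SD had a median of 0.080 over the members and 0.128 over all tested probe sets. Exactly equal values on 2 or more arrays occurred for 24 of 39 members and for 63.6% of all probe sets. Equal values may narrow intervals, which was not tested. Among the 15 members without equal values the interval lay within 1.25-fold for 12. The share was 35.2% of all probe sets without equal values and 47.3% of those of like brightness.

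**Figure D1:**
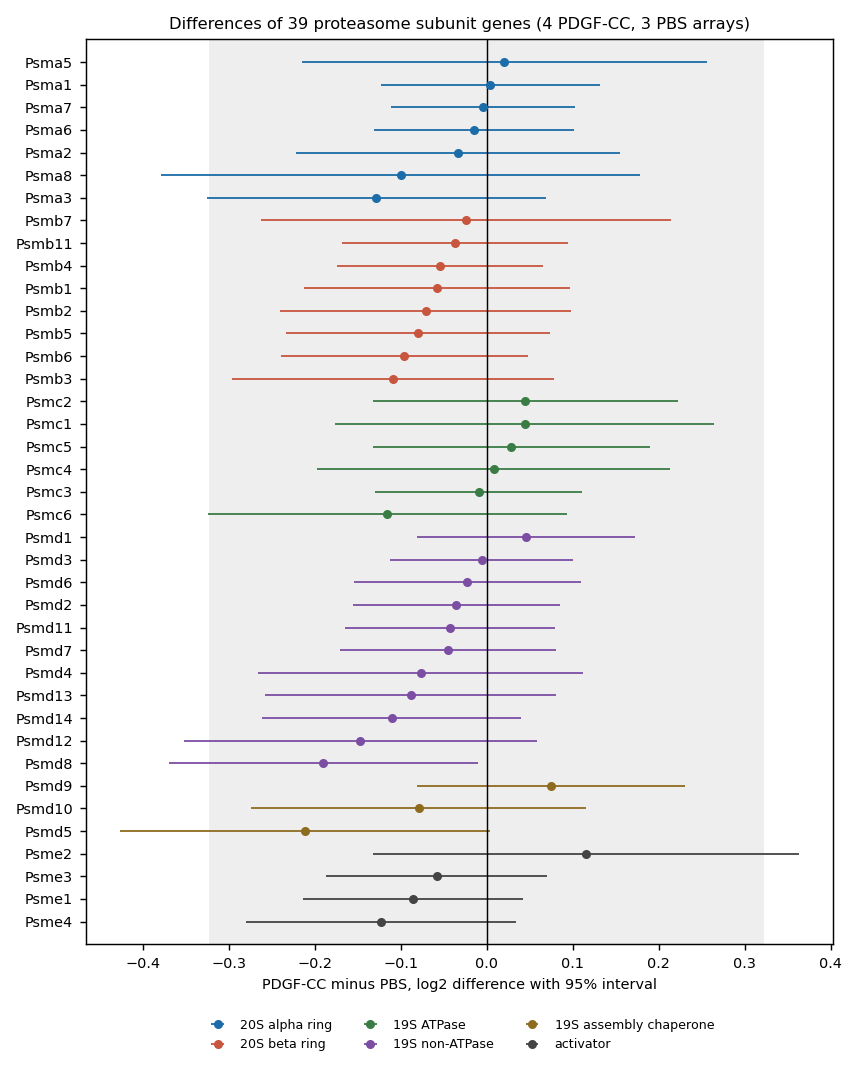
The horizontal axis gives the difference PDGF-CC minus PBS on the log2 scale for each of 39 proteasome subunit genes, with points for the limma estimate, bars for its 95% interval and colours for the place of the subunit in the complex. The grey band marks 1.25-fold in both directions. The interval of Psmd8 alone stays on one side of 0, and that of Psmd5 ends at 0.0040.

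Differences below 0 were the more frequent. They were found for 30 of 39 members, against 51.6% of all probe sets, but the split moved to 24 of 39 when quantile normalization was repeated over the tested probe sets and to 27 of 39 when each array was centred on its median. Probe sets of like brightness leaned the same way but less, and whether brightness has a part in the lean of the members was not tested. Among 3277 tested probe sets with mean levels between 7.80 and 9.75, the quartiles of the members, 59.9% had a negative difference and the median was -0.023. This group of like brightness was chosen after the data had been seen. Members outside those quartiles, such as Psmc2 (11.37) and Psma5 (4.31), are set against it too. It thus does not match the brightness of all members.

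**Figure D2:**
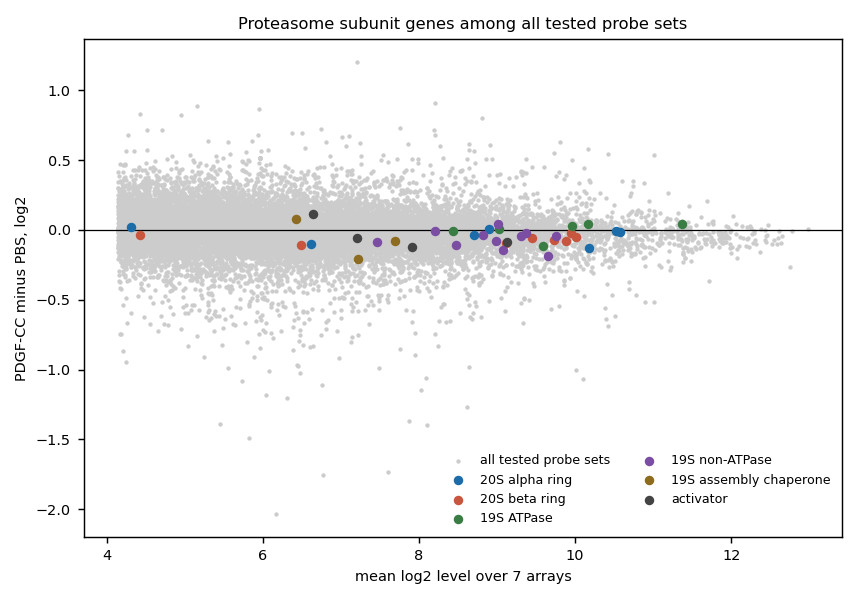
Each point gives the mean log2 level of a probe set over 7 arrays on the horizontal axis and its difference PDGF-CC minus PBS (log2) on the vertical axis. Grey points are the 17734 tested probe sets and coloured points the 39 proteasome subunit genes, which lie between -0.21 and +0.12 while the grey points run from -2.03 to +1.20.

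The alpha ring genes, whose products form the gate of the core, had a median difference close to 0, with single genes from -0.13 (Psma3) to +0.021 (Psma5). The median over the 7 measured genes was -0.015, and 5 of 7 were negative, which became 3 of 7, with a median of +0.0018, under repeated quantile normalization and 4 of 7 with centred arrays. With 1 array left out the median lay between -0.047 (without PBS array 1) and -0.0054 (without PBS array 2). Psma6 differed by -0.015 ± 0.049 (log2, SE, n = 4 and 3), Psma7 by -0.0044 ± 0.045 and Psma1 by +0.0042 ± 0.054. The 95% interval of Psma7 ran from -0.11 to +0.10. Psma2 differed by -0.033 ± 0.080.

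Psma3, another alpha subunit, had log2 levels of 9.93, 10.15, 10.20 and 10.20 on PDGF-CC arrays 1 to 4 and of 10.20, 10.35 and 10.20 on PBS arrays 1 to 3. PDGF-CC array 1 was low and PBS array 2 high, and the other arrays of both groups overlapped. The difference was -0.13 ± 0.084 (adjusted p = 0.770 by limma), -0.067 without PDGF-CC array 1, and -0.078 when PBS array 2 was left out. It was -0.081 under repeated quantile normalization.

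Psma5, which every 20S core needs, was represented by dim probe sets. The brighter one, the dimmest of the members, read 4.47, 4.26, 4.27 and 4.27 with PDGF-CC and 4.12, 4.50 and 4.27 with PBS, close to the filter at 4.14, and the other one had a mean of 3.55. Its difference of +0.021 ± 0.10 became -0.029 when PDGF-CC array 1 was left out and -0.066 when PBS array 1 was left out. Psma8, the alpha subunit of the testis, differed by -0.10 ± 0.12, and its PDGF-CC array 3 was the low one at 6.27 against 6.56 to 6.73 elsewhere.

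The beta ring genes all had negative differences, none of them past the test. The median was -0.065 over 8 genes, -0.11 without PBS array 1 and -0.037 without PBS array 3, and 8 of 8 were negative. Under repeated quantile normalization this became 7 of 8, with Psmb7 at +0.0032, and without PBS array 3 also 7 of 8, with Psmb7 at +0.087. Differences ran from -0.11 ± 0.079 (Psmb3) to -0.024 (Psmb7), and all 8 intervals stayed within 1.25-fold. Psmb11, the beta subunit of the thymus, was dim, with means of 4.40 with PDGF-CC and 4.44 with PBS.

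Of the catalytic beta subunits, Psmb5 carries the chymotrypsin-like activity that drugs such as bortezomib block. Its log2 levels were 9.88, 9.79, 9.88 and 9.86 with PDGF-CC and 9.81, 9.99 and 10.00 with PBS. PBS array 1 lay inside the range of the PDGF-CC arrays and the other PBS arrays above it. The difference was -0.080 ± 0.065 (adjusted p = 0.787 by limma, exact permutation p = 0.2, 2-sided), with -0.14 without PBS array 1, -0.053 without PBS array 2 and -0.045 without PBS array 3.

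Psmb6, the subunit with caspase-like activity, read 9.09, 9.09, 9.09 and 8.99 with PDGF-CC and 9.07, 9.17 and 9.25 with PBS. The groups overlapped through PBS array 1, and the first 3 PDGF-CC values were exactly equal. The difference was -0.096 ± 0.061 (adjusted p = 0.770 by limma), and -0.055 without PBS array 3. Psmb7, with trypsin-like activity, had the widest spread of these genes. It read 9.89, 10.05, 9.88 and 9.91 with PDGF-CC and 9.91, 9.77 and 10.18 with PBS, so that PBS arrays held both the lowest and the highest value, and its difference was -0.024 ± 0.10 (adjusted p = 0.956 by limma).

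The upstream sequences of Psmb5 and Psmb6 are shown because both hold the core of the antioxidant response element, TGANNNNGC, to which Nfe2l1 and Nfe2l2 can bind. They are the 250 bases before the RefSeq start (GRCm38.p6), read in the direction of the gene, with motif letters in capitals. Psmb5 lies on the minus strand of chromosome 14 (chr14:54617996-54618245) and Psmb6 on the plus strand of chromosome 11 (chr11:70525107-70525356).
Psmb5: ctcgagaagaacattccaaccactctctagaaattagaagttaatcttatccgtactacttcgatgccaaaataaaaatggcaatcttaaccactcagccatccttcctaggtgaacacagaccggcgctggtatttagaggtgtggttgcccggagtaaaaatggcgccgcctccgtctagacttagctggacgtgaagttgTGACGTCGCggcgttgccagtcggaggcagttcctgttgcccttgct
Psmb6: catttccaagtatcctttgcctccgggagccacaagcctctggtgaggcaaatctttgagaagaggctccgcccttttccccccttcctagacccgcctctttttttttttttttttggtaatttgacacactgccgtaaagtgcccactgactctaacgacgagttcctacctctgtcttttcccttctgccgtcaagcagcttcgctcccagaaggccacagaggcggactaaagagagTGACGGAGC
The motif begins at position -47 in Psmb5 and at position -9 in Psmb6, where -1 is the last base before the start.

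Motifs were searched on both strands in such windows of 32 members, which have 35 RefSeq starts in the table. TGANNNNGC was in 13 of 35 windows (37.1%) and in 35.2% of all 32851 windows. The CCAAT box, searched as ATTGG, was in 13 of 35 (37.1%) and in 33.8% of all. CCGGAAG, the core bound by ETS factors, was in 12 of 35 (34.3%) and in 6.91% of all. Matches of different motifs were counted separately also where they overlapped. A match describes the letters and does not show that a factor binds there.

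The ATPases of the regulatory particle unfold the substrate and open the gate of the core. Their genes had a median difference of +0.018, with 4 of 6 positive, which became 5 of 6 both under repeated quantile normalization and with centred arrays. The median turned to -0.0056 without PDGF-CC array 3 and to -0.0014 without PDGF-CC array 4, and was +0.0038 without PBS array 3 and +0.045 under repeated quantile normalization. Psmc1 differed by +0.044 ± 0.093, Psmc5 by +0.028 ± 0.068, Psmc4 by +0.0079 ± 0.087 and Psmc3 by -0.0095 ± 0.051. Psmc4 went to -0.087 without PBS array 2, whose value of 8.83 was the lowest of its 7.

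Psmc2 had the brightest probe set of all members. It read 11.33, 11.46, 11.40 and 11.37 with PDGF-CC and 11.32, 11.49 and 11.22 with PBS, and the groups overlapped in full. The difference was +0.045 ± 0.075 (adjusted p = 0.886 by limma), with +0.12 without PBS array 2, -0.018 without PBS array 3 and +0.090 under repeated quantile normalization. A dimmer probe set of Psmc2, with a mean of 9.12, differed by +0.027. Psmc6 was the ATPase gene farthest from 0, at -0.12 ± 0.088, and read 9.33 on PDGF-CC array 1 against 9.56 to 9.71 on the others, which left -0.045 without that array.

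The other subunits of the regulatory particle form the scaffold of its base and the lid that removes ubiquitin. Their 11 genes had a median difference of -0.045, and 10 of 11 were negative, with 8 of 11 and a median of -0.025 under repeated quantile normalization and 9 of 11 with centred arrays. Differences within this group ran from -0.19 (Psmd8) to +0.046 (Psmd1). The scaffold genes Psmd1 and Psmd2, whose products sit side by side in the base, had differences of +0.046 ± 0.054 and -0.035 ± 0.051.

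Psmd8, a lid subunit, was the member whose groups did not overlap. It read 9.48, 9.56, 9.61 and 9.61 with PDGF-CC and 9.65, 9.71 and 9.91 with PBS. All PDGF-CC arrays lay below PBS array 1, the lowest of its group, and PBS array 3 stood highest. The means were 9.57 ± 0.063 (SD, n = 4) and 9.76 ± 0.14 (SD, n = 3). The difference was -0.19 ± 0.076, or 1.14-fold lower, with an adjusted p of 0.769 by limma and an exact permutation p of 0.0286 (2-sided, the smallest that 35 splits can give), and it was -0.11 without PBS array 3.

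Complete separation of this kind was found for 1 of 39 members, lower with PDGF-CC, against 2.5% of all probe sets lower, 1.8% higher and 4.3% in either direction. With 6 arrays it is easier to reach. Without PBS array 1 the number was 8 (Psmb2, Psmb4, Psmb5, Psmb6, Psmd5, Psmd8, Psmd13 and Psme1) against 12.4% of all probe sets. Without PDGF-CC array 3 it was 4 (Psmc6, Psmd8, Psmd14 and Psme4) against 8.26%. It was 2 of 39 without PBS array 2 (12.3% of all probe sets), PBS array 3 (11.9%), PDGF-CC array 4 (7.87%) or PDGF-CC array 1 (6.34%), and 1 of 39 without PDGF-CC array 2 (6.23%). Psmd8 was among them in each of these 7 cases.

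Psmd12, also of the lid, read 8.93, 8.93, 9.13 and 9.08 with PDGF-CC and 9.09, 9.08 and 9.32 with PBS. PDGF-CC arrays 1 and 2 were low and PBS array 3 high, and the others overlapped. The difference was -0.15 ± 0.087 (adjusted p = 0.769 by limma), with -0.069 without PBS array 3 and -0.091 with the number in the sample description as a covariate. Psmd14, the enzyme that cuts the ubiquitin chain off the substrate, read 8.34, 8.43, 8.52 and 8.40 with PDGF-CC and 8.51, 8.62 and 8.47 with PBS. Its PDGF-CC array 3 lay within the PBS range, and the difference was -0.11 ± 0.064 (adjusted p = 0.769 by limma), or -0.069 without PBS array 2.

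Psmd1 is an example of equal values. It read 9.03, 9.04, 9.04 and 9.04 with PDGF-CC and 9.04, 8.89 and 9.04 with PBS, so that its difference of +0.046 rested on PBS array 2 and was -0.0021 without it. Psmd4, a receptor for ubiquitin, differed by -0.077 ± 0.080 and was low on PDGF-CC array 1, at 8.78 against 8.95 to 9.13 elsewhere. Psmd3 and Psmd6 differed by -0.0060 ± 0.045 and -0.023 ± 0.056, and Psmd7, Psmd11 and Psmd13 by -0.045, -0.043 and -0.089.

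The upstream sequences of Psmd8 and Psmd12 are shown as those of the lid genes with the lowest differences. Psmd8 lies on the minus strand of chromosome 7 (chr7:29180674-29180923) and Psmd12 on the plus strand of chromosome 11 (chr11:107479278-107479527), and capitals mark the same motifs as above.
Psmd8: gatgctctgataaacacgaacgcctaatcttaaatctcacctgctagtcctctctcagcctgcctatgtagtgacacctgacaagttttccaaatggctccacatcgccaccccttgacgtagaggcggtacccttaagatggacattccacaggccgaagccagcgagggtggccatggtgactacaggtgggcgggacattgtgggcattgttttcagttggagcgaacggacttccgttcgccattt
Psmd12: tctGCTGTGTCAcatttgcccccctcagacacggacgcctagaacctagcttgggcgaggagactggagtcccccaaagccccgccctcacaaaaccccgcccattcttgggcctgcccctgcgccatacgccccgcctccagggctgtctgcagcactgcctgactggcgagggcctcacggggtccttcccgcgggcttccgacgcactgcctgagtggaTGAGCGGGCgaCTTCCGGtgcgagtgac
The window of Psmd8 held none of the motifs, and that of Psmd12 held 2 matches of TGANNNNGC, 1 on each strand, and 1 of CCGGAAG on the reverse strand.

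The assembly chaperones of the regulatory particle are not part of the finished proteasome. Psmd5, which holds the ATPase ring during assembly, had the lowest difference of all members. It read 7.01, 7.10, 7.09 and 7.32 with PDGF-CC and 7.21, 7.42 and 7.40 with PBS. PDGF-CC array 4 lay above PBS array 1, and the other PDGF-CC arrays lay below all PBS arrays. The difference was -0.21 ± 0.091, or 1.16-fold lower, with an adjusted p of 0.769 by limma and an exact permutation p of 0.0857 (2-sided).

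The remaining chaperones went separate ways. Psmd9 read 6.45, 6.52, 6.45 and 6.44 with PDGF-CC and 6.46, 6.25 and 6.45 with PBS. PBS array 2 was the low one, and the difference of +0.075 ± 0.066 fell to +0.0072 without it. Psmd10, also known as gankyrin, differed by -0.079 ± 0.083, with its lowest value, 7.47, on PDGF-CC array 2.

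Activators bind the ends of the core in place of the regulatory particle. Psme1 and Psme2 encode partners in one ring that interferon induces, and their differences had opposite signs, -0.086 ± 0.054 for Psme1 and +0.12 ± 0.11 for Psme2. Psme2 read 6.88, 6.82, 6.55 and 6.53 with PDGF-CC and 6.55, 6.52 and 6.67 with PBS. PDGF-CC arrays 1 and 2 lay above all PBS arrays and PDGF-CC arrays 3 and 4 among them, and the difference was +0.054 without array 1 and +0.073 without array 2 (adjusted p = 0.800 by limma with all arrays). Psme3, the nuclear activator, differed by -0.059 ± 0.054.

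Psme4, the activator that promotes the degradation of acetylated histones, read 7.71, 7.89, 7.93 and 7.89 with PDGF-CC and 7.999, 8.004 and 7.92 with PBS. PDGF-CC array 3 lay above PBS array 3, and PDGF-CC array 1 stood lowest. The difference was -0.12 ± 0.066 (adjusted p = 0.769 by limma, exact permutation p = 0.0857, 2-sided), and -0.076 without PDGF-CC array 1.

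**Figure D3:**
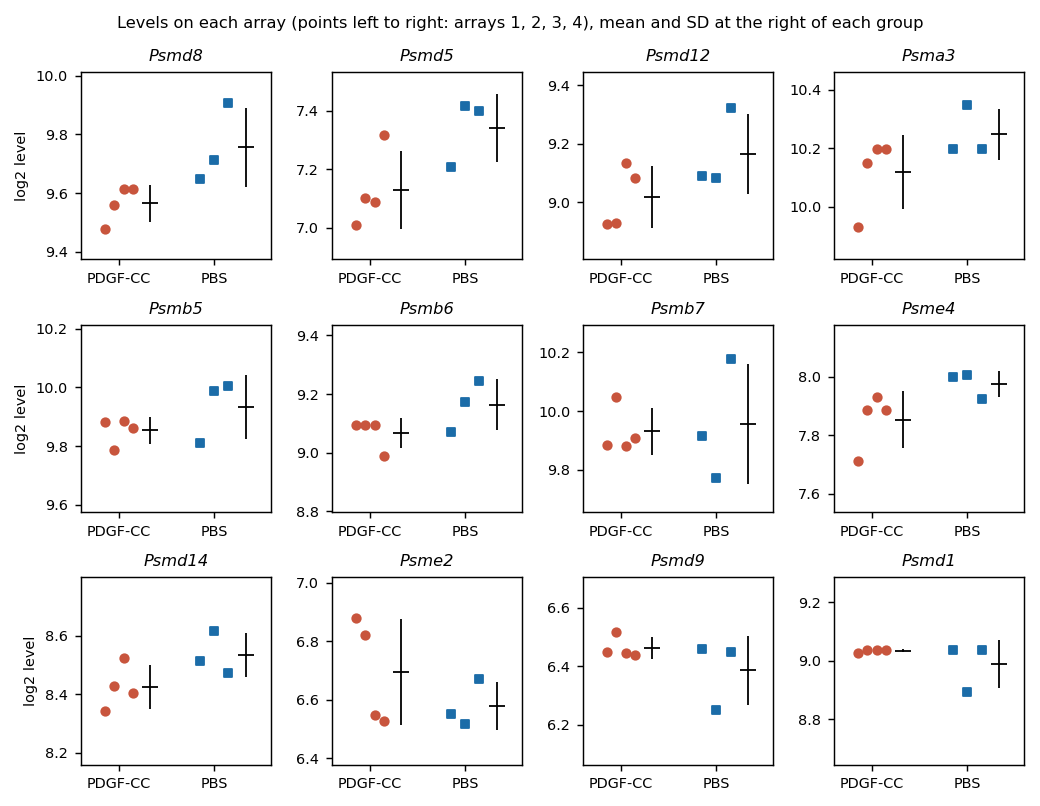
The vertical axes give log2 levels of 12 proteasome subunit genes on each array, each panel spanning the same range of log2 units, with circles for the 4 PDGF-CC arrays, squares for the 3 PBS arrays and bars for the mean and SD of each group. The groups are separate in the panel of Psmd8 and overlap in the other panels.

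The lowest and highest values of the members were unevenly spread over the arrays of each group. PDGF-CC array 1 held the lowest value of 17 of 39 members (43.6%) and PDGF-CC array 2 that of 11 (28.2%), while PDGF-CC arrays 3 and 4 held that of 1 and 2. Among probe sets of like brightness PDGF-CC arrays 1 to 4 held the lowest value of 26.1%, 21.1%, 6.44% and 7.26%, so these were uneven too. PBS array 3 held the highest value of 14 members (35.9%) and PBS array 2 that of 12 (30.8%), with ties counted for each array. The shares among probe sets of like brightness were 25.7% and 14.4%. PDGF-CC arrays 3 and 4 and PBS array 1 thus lay between the extremes, with median deviations from the gene means of -0.0024, -0.0017 and -0.0090, against -0.029 and -0.025 for PDGF-CC arrays 1 and 2 and +0.027 and +0.041 for PBS arrays 2 and 3.

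Probe sets of like brightness showed part of this pattern. Their median deviations were -0.026 on PDGF-CC arrays 1 and 2 each and +0.031 on PBS array 3, but -0.011 on PBS array 2, where the members were high. On PDGF-CC arrays 3 and 4 and PBS array 1 they were +0.022, +0.013 and +0.018, against -0.0024, -0.0017 and -0.0090 for the members. The sample descriptions carry numbers from 1 to 7. PDGF-CC arrays 1 to 4 have the numbers 1, 2, 5 and 6, and PBS arrays 1 to 3 the numbers 3, 4 and 7. With that number as a covariate the median difference of the members was -0.039, and 0 members passed.

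**Figure D4:**
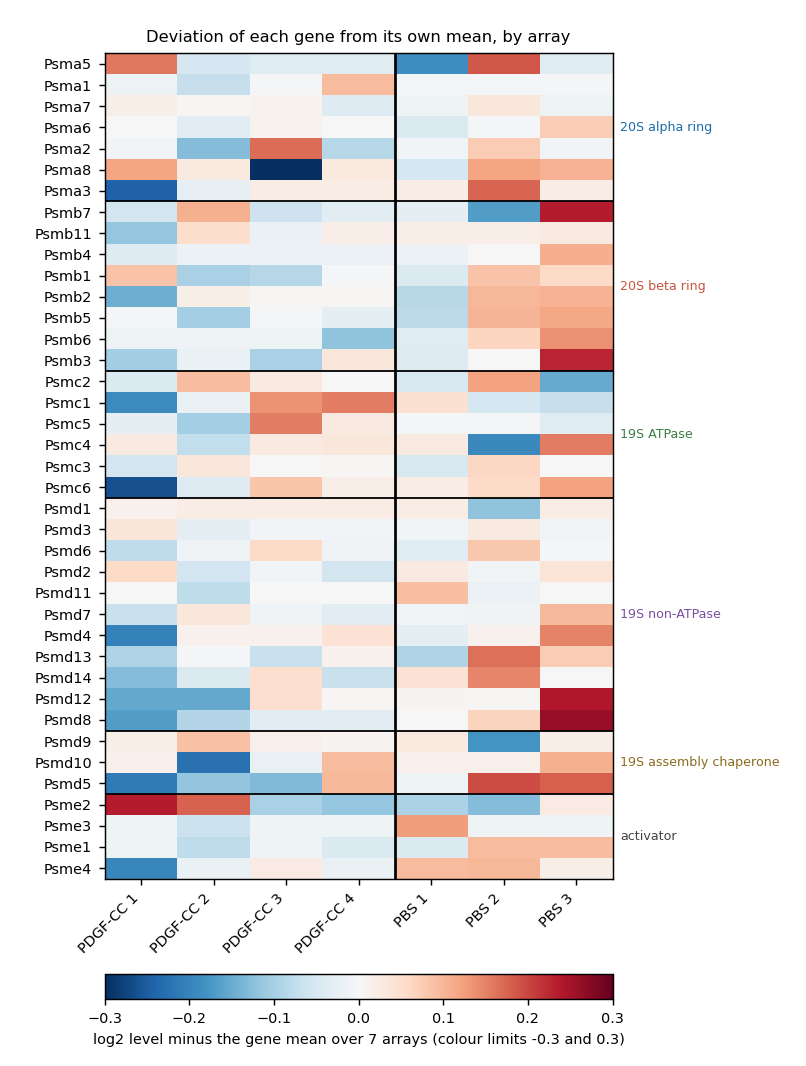
Rows are 39 proteasome subunit genes by their place in the complex, columns are the 7 arrays, and colour gives the log2 level minus the mean of the gene over all arrays, from -0.3 (blue) to +0.3 (red). PDGF-CC array 1 holds the lowest value of 17 genes (43.6%, against 26.1% of probe sets of like brightness). PBS array 3 holds the highest value of 14 genes (35.9%, against 25.7%).

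Other genes of the ubiquitin-proteasome pathway were taken from a list of 39 genes, of which 30 had a probe set of their own and were tested. None passed the test (0 of 30 at an adjusted p of 0.05 by limma), as was so for all probe sets (0%). The unadjusted p was under 0.05 for 2 of 30, against 6.04% of all probe sets. The median difference was -0.045, with -0.020 without PDGF-CC array 1, -0.074 without PBS array 2 and -0.024 under repeated quantile normalization. Negative differences were found for 22 of 30 genes, against 51.6% of all probe sets, or for 19 of 30 under repeated quantile normalization, with centred arrays or without PBS array 3, and for 18 of 30 without PDGF-CC array 1. The transcription factors had differences close to 0, with Nfe2l1 at -0.00061 ± 0.047 and Nfe2l2 at +0.022 ± 0.081. The unfoldase gene Vcp, which hands substrates to the proteasome, differed by +0.062 ± 0.097. The groups did not overlap for 3 of 30, against 4.3% of all probe sets: Uba6 was lower, and Zfand5 (+0.10 ± 0.069) and Ufd1 (+0.055 ± 0.048), named after their values were seen, were higher.

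Chaperones that build the core had a median difference of -0.16, with 5 of 5 negative, also under repeated quantile normalization and with centred arrays. The median was -0.089 without PDGF-CC array 1 and -0.085 with the description number as a covariate. Psmg3 read 6.86, 6.93, 6.86 and 6.81 with PDGF-CC and 6.93, 7.34 and 7.29 with PBS. PBS arrays 2 and 3 stood above the rest, and PBS array 1 equalled PDGF-CC array 2. Its difference was -0.32 ± 0.10 (adjusted p = 0.769 by limma, exact permutation p = 0.0571, 2-sided).

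Psmg2, the partner of Psmg1 in building the alpha ring, read 7.54, 7.33, 7.38 and 7.05 with PDGF-CC and 7.41, 8.17 and 7.59 with PBS. PBS array 2 stood far above the others, and the difference of -0.40 ± 0.20 was -0.17 without it and -0.21 as the mean of both probe sets of the gene. Uba6, an enzyme that activates ubiquitin, read 7.50, 7.71, 7.74 and 7.67 with PDGF-CC and 7.89, 7.85 and 7.84 with PBS. All PDGF-CC arrays lay below all PBS arrays, and the difference was -0.20 ± 0.070 (adjusted p = 0.769 by limma, exact permutation p = 0.0286, 2-sided, the smallest possible).

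Proteins bound to the regulatory particle included Uchl5, which trims ubiquitin chains, and Sem1, a small lid subunit. Uchl5 read 8.48, 8.46, 8.57 and 8.47 with PDGF-CC and 8.60, 8.75 and 8.52 with PBS, which overlapped through PDGF-CC array 3, and differed by -0.13 ± 0.068 (-0.070 without PBS array 2). Sem1 read 10.54, 10.51, 10.45 and 10.30 with PDGF-CC and 10.40, 10.79 and 10.66 with PBS. PBS array 1 lay among the PDGF-CC arrays, and the difference of -0.16 ± 0.11 was -0.27 without that array and -0.075 without PBS array 2.

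The inducible counterparts of the catalytic subunits had small differences as well. Psmb8 replaces Psmb5 in the immunoproteasome and differed by -0.038 ± 0.055, and Psmb9, which replaces Psmb6, by -0.075 ± 0.062. Psmb10, which replaces Psmb7, read 8.80, 8.80, 8.56 and 8.80 with PDGF-CC and 8.80, 8.85 and 8.97 with PBS. PDGF-CC array 3 was low and PBS array 3 high, and the difference of -0.13 ± 0.082 (adjusted p = 0.770 by limma) was -0.075 without PDGF-CC array 3, or -0.083 with PBS array 3 left out.

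Genes for regulators of the proteasome had a median difference of +0.070, with 2 of 5 negative, and the median was +0.029 without PDGF-CC array 2, +0.021 without PBS array 2 and +0.11 without PDGF-CC array 1. Zfand2a, which acts at the proteasome under arsenite stress, differed by +0.15 ± 0.13, Akirin2, which brings proteasomes into the nucleus, by +0.070 ± 0.074, and the inhibitor Psmf1 by -0.035 ± 0.11. The shuttle factors, which carry ubiquitinated proteins to the proteasome, had negative differences for 4 of 4 genes, from -0.12 ± 0.078 (Ubqln4) to -0.0056 ± 0.092 (Rad23b), for 3 of 4 under repeated quantile normalization, with centred arrays or without PDGF-CC array 1, and for 2 of 4 without PBS array 1.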

How the data were processed

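The authors deposited log2 values for 33793 probe sets on 7 arrays. The submitters' processing notes name Affymetrix Expression Console, RMA and limma, with no version or role for any. Labelling started from 10 ng of RNA, amplified and biotinylated, per the labels' protocols. Arrays have no read depth, and precision depends on their number and on the spread between them. The array settings and the genome build were not given in the sources used here.

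Named probe sets brighter than the 30th percentile entered 1 fit of PDGF-CC minus PBS without covariates (limma 3.58.1, R 4.3.3, lmFit and eBayes, 2-sided), and Benjamini-Hochberg adjustment ran over all 17734. Alternatives were other filters, normalizations, priors, array weights, covariates, probe set choices and left-out arrays. The code was tested on simulated data. Exact permutation went through the 35 ways to divide the arrays. The members and lists were chosen with earlier results of these data known. Given in full are members past the threshold, with the 4 highest and 4 lowest differences, the 6 smallest p, separate groups or a catalytic role, the brightest and the dimmest, and the 6 partner genes with the smallest p. Promoter windows are RefSeq's (GRCm38.p6), without the part after the start. Figures were drawn with matplotlib 3.10.9.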

Additional observations from a re-analysis of the deposited data

Results flagged for a closer look

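For 10 of the 40 sets of 4 PDGF-CC values examined (39 genes and their median deviation), 1 array stood apart from the other 3 by Dixon's test. Chance gives about 1 in 20 for values without ties, but equal values occurred for 24 of 39 members and 63.6% of all probe sets. The share flagged over all probe sets was not computed, so the count cannot be read as a trait of these genes. The gap divided by the range was 1 for Psmb4 (PDGF-CC array 1, 9.97), Psmb6 (array 4, 8.99), Psmd11 (array 2, 9.23) and Psme3 (array 2, 7.14), since the other 3 values of these genes were exactly equal. It was 0.932 for Psma5 (array 1, 4.47), 0.917 for Psmb2 (array 1, 9.59), 0.934 for Psmc4 (array 2, 8.95), 0.894 for Psmd1 (array 1, 9.03), 0.881 for Psmd4 (array 1, 8.78) and 0.879 for Psmd9 (array 2, 6.52). Equal or nearly equal values raise this quotient even where the array that stands apart differs little, as for Psmd1.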

How the results depend on the processing

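The median difference of the proteasome subunit genes was -0.045 in the main fit. Under all 16 alternatives run it moved from that value by no more than the spread between replicates (SD 0.020). In each of them 0 members and 0 partner genes passed the adjusted threshold. Removing the filter or changing the prior leaves each fitted difference as it is, so these alternatives could not move the median. The replicate block gives the same differences as leaving out PDGF-CC array 4 and is not a separate check of the median. Psma5 could not be fitted with the filter at the 50th percentile or with the mean of its probe sets, and Psmb11 not with that filter. Leaving out 1 array moved the number of members with separate groups between 1 and 8 of 39, while the share over all probe sets moved between 6.23% and 12.4%. Repeated quantile normalization turned the sign of Psma6 (+0.035), Psma7 (+0.049), Psmb7 (+0.0032), Psmc3 (+0.015), Psmd3 (+0.024) and Psmd6 (+0.0092). Centring the arrays turned Psma7 (+0.0055), Psmc3 (+0.00045) and Psmd3 (+0.0039), and array weights turned Psmc3 (+0.010), Psmc4 (-0.0083) and Psmd6 (+0.0041). Arrays left out turned the sign of genes close to 0, with these ranges: Psma1 -0.027 to +0.028, Psma2 -0.094 to +0.0049, Psma5 -0.066 to +0.12, Psma6 -0.041 to +0.017, Psma7 -0.013 to +0.012, Psma8 -0.15 to +0.0018, Psmb7 -0.12 to +0.087, Psmc1 -0.00043 to +0.11, Psmc2 -0.018 to +0.12, Psmc3 -0.036 to +0.019, Psmc4 -0.087 to +0.087, Psmc5 -0.018 to +0.066, Psmd1 -0.0021 to +0.069, Psmd3 -0.019 to +0.0057 and Psmd6 -0.047 to +0.011. The cause of these turns was not tested.

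Arrays with the same replicate number correlated in their deviations at 0.163, 0.107 and 0.0844. For PDGF-CC arrays 1, 2 and 3 these were the highest values with any PBS array. Pairs of unlike number ran from -0.224 (PDGF-CC array 4 with PBS array 1) to 0.320 (PDGF-CC array 4 with PBS array 3). The main fit did not pair the samples, and whether the numbers mark pairs was not tested. With the replicate block the median difference of the members was -0.049 and that of the partner genes -0.054, 0 members and 0 partner genes passed, and the signs of Psma1 (-0.027), Psma7 (+0.0080), Psmc1 (-0.00043) and Psmc4 (-0.0023) turned. PDGF-CC array 4 has no PBS array of its number and adds nothing to that fit.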
